A study of Mus musculus with 9 samples.

Results

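A set of 5 genes whose products act on virus membranes or on viral RNA was followed in mouse embryonic fibroblasts: Ifitm1, Ifitm2 and Ifitm3, which encode interferon-induced transmembrane proteins, Bst2, which encodes tetherin, and Isg20, which encodes an RNA exonuclease. They were taken by symbol, and all 5 were matched to an Ensembl identifier among the 46603 in the count files. Every library came from β-actin knockout fibroblasts of BALB/c embryos of day 10.5, so the 3 groups share the loss of Actb, and wild-type cells were not analysed here. Mock cells received the cationic lipid transfection reagent alone for 6 h. The other groups received the same reagent with 10 µg/ml poly(dA:dT), which mimics viral DNA, or with 10 µg/ml poly(I:C), which mimics double-stranded viral RNA. The question of the series, as its labels give it, is how gene expression in cells without β-actin responds to such nucleic acids. Each group held 3 RNA-seq libraries. Nothing in the labels says that the 3 grew as separate cultures, so p-values measure only how far these libraries spread, and that spread may be technical.

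IFITM proteins sit in the plasma membrane and in endosomes and hinder the fusion of enveloped viruses with cell membranes, and IFITM3 acts mainly in late endosomes. Tetherin is a membrane protein anchored at both ends that holds budding virions on the surface of the cell that made them. ISG20 degrades single-stranded RNA from its 3′ end. In most cells the genes are known as targets of interferon, which acts through transcription factors that bind interferon-stimulated response elements (ISRE) in promoters.

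Promoter sequence is given beside the expression values as a description, and any part of it in the changes was not tested. RefSeq (GRCm38.p6) held 7 promoter windows for the 5 genes, 3 of them for Isg20, each from 250 bases before to 50 bases after a gene start. Both strands were searched for GAAANNGAA (the ISRE core), TTCNNNGAA (the core of the gamma-activated site, GAS) and GGNNTTTCC (a form of the kappaB site). The windows below run 5′ to 3′ on the gene's strand, from 170 bases before the start to 29 after it, and capitals mark the matched bases. Ifitm2 is chr7:140955932-140956131 (minus strand), Ifitm3 chr7:141010715-141010914 (minus), Bst2 chr8:71537443-71537642 (minus) and Isg20 chr7:78913254-78913453 (plus, the first of its 3 starts).
Ifitm2: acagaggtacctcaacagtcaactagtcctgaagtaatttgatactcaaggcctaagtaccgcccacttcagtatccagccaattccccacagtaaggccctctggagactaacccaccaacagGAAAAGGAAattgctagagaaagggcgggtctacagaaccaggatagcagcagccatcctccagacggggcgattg
Ifitm3: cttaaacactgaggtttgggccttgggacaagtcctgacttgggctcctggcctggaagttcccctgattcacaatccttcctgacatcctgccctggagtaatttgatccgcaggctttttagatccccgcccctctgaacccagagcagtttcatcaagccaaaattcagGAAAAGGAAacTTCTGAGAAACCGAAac
Bst2: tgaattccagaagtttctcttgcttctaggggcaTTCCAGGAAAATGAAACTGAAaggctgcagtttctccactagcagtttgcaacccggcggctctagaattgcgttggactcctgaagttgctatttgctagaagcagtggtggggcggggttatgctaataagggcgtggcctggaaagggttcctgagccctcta
Isg20: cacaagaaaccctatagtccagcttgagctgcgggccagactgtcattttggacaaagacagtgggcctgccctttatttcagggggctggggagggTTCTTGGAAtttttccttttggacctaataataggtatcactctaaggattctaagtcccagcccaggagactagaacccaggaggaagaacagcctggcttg

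Ifitm3 and Bst2 each held 2 ISRE cores, and Ifitm2 held 1. In Ifitm3 they lay at positions 2 to 10 and 19 to 27 counted from the RefSeq start, which lies 26 bases downstream of the start of the GENCODE gene. A GAS core at 13 to 21 shared bases with the second of them. In Bst2 the cores at -130 to -122 and -124 to -116 overlapped each other, and a GAS core at -136 to -128 overlapped the first. The core of Ifitm2 lay at -46 to -38. Isg20 held a GAS core at -73 to -65 in the window of its first start and no ISRE core in any of its 3 windows. The Ifitm1 window, whose start lies 855 bases inside the GENCODE gene, held no match, and none of the 7 windows held the kappaB form. Of 32851 windows of 300 bases in the table, 8.56% held at least 1 ISRE core, 0.624% at least 2, 8.3% a GAS core and 5.82% the kappaB form. A match describes letters and is not a measured binding site.

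**Figure D1:**
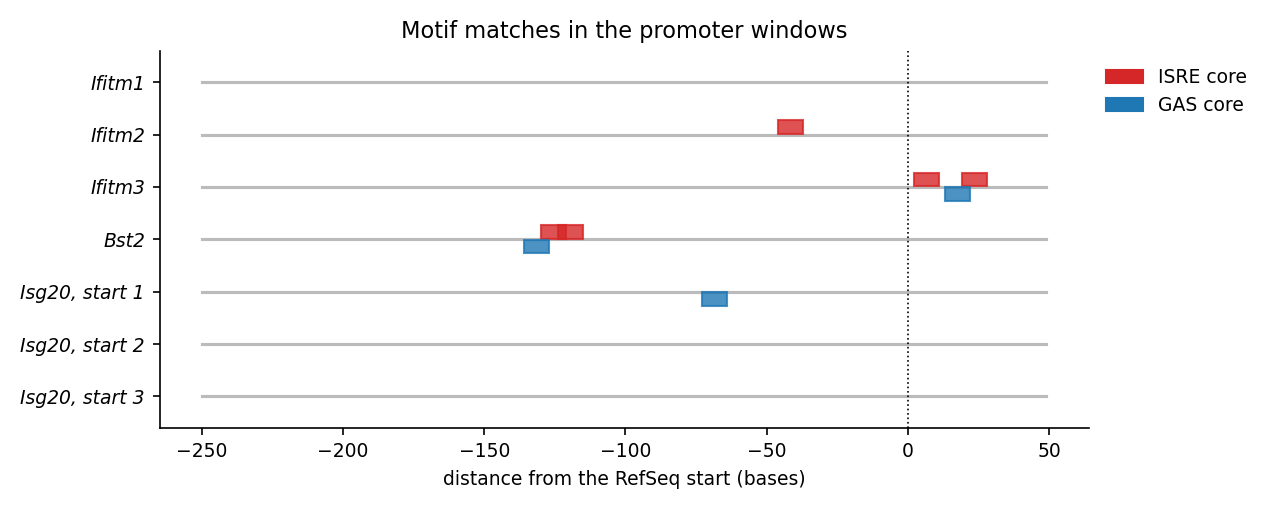
Positions of ISRE core matches (red, above the line) and GAS core matches (blue, below the line) in the 7 promoter windows of 300 bases, in bases from the RefSeq start (dotted line). Ifitm3 and Bst2 each carry 2 ISRE cores, Ifitm2 carries 1, and Ifitm1 and Isg20 carry none.

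Counts assigned to genes ranged from 16082772 to 29219797 per library. A gene without a count could still stand at 0.103 to 0.187 CPM (counts-per-million of the library total), the level of 3 counts, and this limit covers counting error only. All other CPM values use TMM-scaled library sizes. The knocked-out gene, Actb, kept 565 to 924 counts per library, and the edgeR quasi-likelihood test called it in none of the 3 comparisons (adjusted p = 0.0613, 0.52 and 0.223). The sources used here do not give the extent of the deletion, and other actin genes can share its reads. All 5 genes passed the filter on low counts, Ifitm1 with all 3 mock libraries, where it was highest, above the minimum. All 8 fibroblast markers of a fixed list were tested, and their summed level was 7524 to 7688 CPM per mock library, 7259 to 7381 after poly(dA:dT) and 6460 to 6762 after poly(I:C). After poly(dA:dT) 1 of them (Fn1) was called higher and 6 lower (edgeR), beside 26.6% and 26.2% of all genes tested. After poly(I:C) 1 (Fn1) was called higher and 7 lower, beside 39.8% and 36.3%. Col3a1 fell most there, 2.23-fold, and Fn1 rose 1.32-fold. Of 14176 genes tested after poly(dA:dT), 50.3% of the calls were increases with TMM scaling and 67.7% with total counts as the scaling.

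Among the 5 genes, poly(I:C) raised Ifitm3, Bst2 and Isg20 and lowered Ifitm2 and Ifitm1. All 5 were called in that comparison (edgeR quasi-likelihood test, Benjamini-Hochberg adjusted p under 0.05), where 76.1% of all genes tested were called, 39.8% higher and 36.3% lower. After poly(dA:dT) 3 were called, Ifitm3 higher and Ifitm2 and Ifitm1 lower, where 52.8% of all genes were called, 26.6% higher and 26.2% lower. Between the mimics 4 were called, Ifitm3, Bst2 and Isg20 higher and Ifitm2 lower after poly(I:C), where 63.4% of all genes were called, 31.3% higher and 32.1% lower. At least 2-fold changes were called lower for 1 of the 5 after poly(dA:dT) (Ifitm1; 0.0635% of all genes) and higher for none (3.84%). After poly(I:C) they were called higher for 3 (13.1%) and lower for 1 (1.04%). Between the mimics they were called higher for 3 (7.62%) and lower for none (0.409%). The libraries of the groups compared did not overlap for 3 of the 5 genes in poly(dA:dT) against mock (57.3% of all genes), 5 in poly(I:C) against mock (76.8%) and 4 between the mimics (66.1%). The 5 genes had a median log2 fold change of 0.01 after poly(dA:dT) and of 1.36 after poly(I:C), beside 0.01 and 0.04 over all genes tested.

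**Figure D2:**
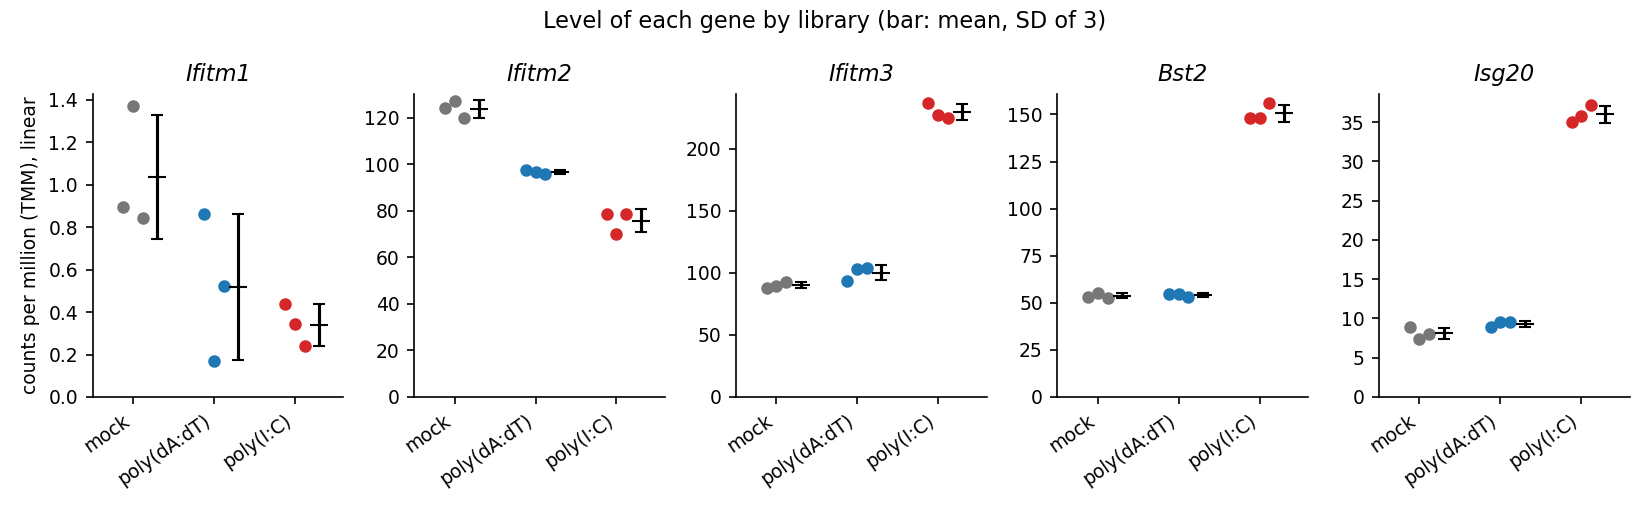
Level of each gene in every library, in TMM-scaled CPM on linear axes that start at 0 and differ between genes. Dots are libraries and the bar is the mean and SD of 3, with Ifitm3, Bst2 and Isg20 highest after poly(I:C) and Ifitm2 highest in mock.

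Ifitm3 (ENSMUSG00000025492, chromosome 7, 141009586 to 141010770, minus strand, GRCm38) encodes the family member that restricts influenza virus in endosomes. Its level was 87.6, 89.6 and 92.3 CPM in mock replicates 1 to 3. It was 93.1, 103 and 104 CPM after poly(dA:dT) and 237, 227 and 225 CPM after poly(I:C). The 3 groups did not overlap, although the lowest poly(dA:dT) library lay just above the highest mock library. The log2 fold change was 0.16 ± 0.03 (SE) after poly(dA:dT), a 1.12-fold rise (edgeR, adjusted p = 1.79e-05). After poly(I:C) it was 1.36 ± 0.03, a 2.56-fold rise (adjusted p = 1.24e-80). Poly(I:C) gave 2.29 times the level seen with poly(dA:dT) (adjusted p = 4.75e-74). Among all genes tested, 9.02% had a larger log2 fold change than Ifitm3 after poly(I:C) and 31.7% after poly(dA:dT).

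Ifitm2 (ENSMUSG00000060591, chromosome 7, 140954837 to 140955987, minus strand), which encodes a close relative of the Ifitm3 protein, fell in both comparisons. Mock libraries stood at 124, 127 and 119.8 CPM. The poly(dA:dT) libraries stood at 97.5, 96.8 and 95.8 CPM, and after poly(I:C) at 78.6, 70.1 and 78.7 CPM. Every treated library was below every mock library, and the poly(I:C) libraries were below those of poly(dA:dT). The log2 fold change was -0.36 ± 0.03 (SE) after poly(dA:dT) (edgeR, adjusted p = 3.85e-19) and -0.72 ± 0.04 after poly(I:C), a level 1.64-fold lower than in mock (adjusted p = 4.84e-44). Poly(I:C) against poly(dA:dT) gave -0.36 ± 0.04 (adjusted p = 8.00e-17). After poly(I:C) 4.48% of the genes tested had a lower log2 fold change.

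Ifitm1 (ENSMUSG00000025491, chromosome 7, 140967221 to 140969825, plus strand) encodes a family member known mainly from the cell surface, and it was close to the limit of detection. Mock libraries held 25, 33 and 16 of its counts, poly(dA:dT) libraries 18, 4 and 12, and poly(I:C) libraries 9, 8 and 4. Mean levels were 1.04 ± 0.291, 0.518 ± 0.346 and 0.34 ± 0.0983 CPM (SD, n = 3) in that order. The first poly(dA:dT) library overlapped the mock range, while all poly(I:C) libraries were below it. The log2 fold change was -1.57 ± 0.40 (SE) after poly(I:C) (edgeR, adjusted p = 0.000241) and -1.03 ± 0.36 after poly(dA:dT) (adjusted p = 0.0113). The filter favours a gene that is high in 1 group, as Ifitm1 was in mock, so its calls and its place in the counts of genes called lower are no independent support. Without the filter the values were -1.60 (adjusted p = 0.000217) and -1.03 (adjusted p = 0.0189). The poly(dA:dT) call was lost without mock replicate 2 (-0.78, adjusted p = 0.124), without poly(dA:dT) replicate 2 (-0.60, adjusted p = 0.204) and with DESeq2 (-1.04, adjusted p = 0.105). Poly(I:C) and poly(dA:dT) gave -0.54 ± 0.47 against each other, which was not called (adjusted p = 0.316).

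**Figure D3:**
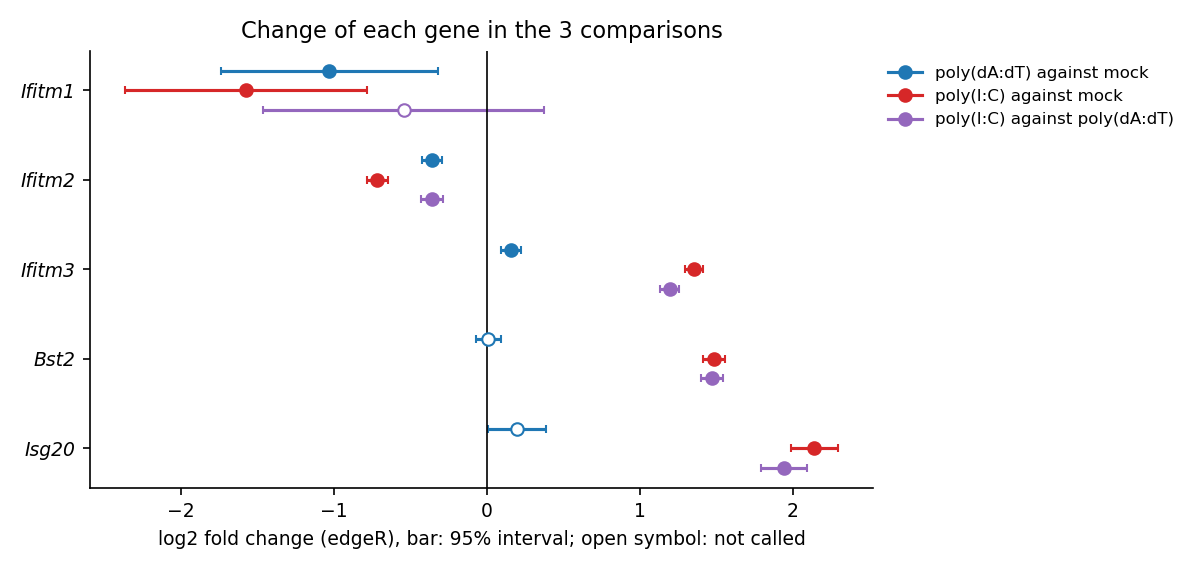
Log2 fold change of each gene in the 3 comparisons, with 95% intervals from the edgeR standard error, and open symbols where the adjusted p was at least 0.05. Ifitm2 and Ifitm1 lie left of 0 in both comparisons with mock, and after poly(I:C) the other 3 genes lie between 1.36 and 2.14.

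The opposite courses of Ifitm2 and Ifitm3 changed the makeup of the family's transcripts, and this measure does not depend on how libraries are scaled. Ifitm3 held 41.1%, 41% and 43.3% of the summed Ifitm1, Ifitm2 and Ifitm3 counts in the mock libraries. In the poly(dA:dT) libraries it held 48.6%, 51.5% and 51.9%, and in the poly(I:C) libraries 75%, 76.3% and 74%. The exact 95% binomial interval of the first mock library ran from 39.9% to 42.4% and that of the first poly(I:C) library from 73.9% to 76.0%. Such an interval covers counting error only, and mock replicate 3, at 43.3%, lay outside that of mock replicate 1. The groups did not overlap in any pair. The mean share was 8.85 percentage points higher than mock after poly(dA:dT) and 33.2 points higher after poly(I:C), and 24.4 points higher after poly(I:C) than after poly(dA:dT). The exact two-sided permutation test gave p = 0.1 for each of the 3 pairs, also after Benjamini-Hochberg adjustment, and 0.1 is the smallest p that 3 against 3 libraries allow. There were 0.726 ± 0.0381 Ifitm3 counts per Ifitm2 count in mock, 1.04 ± 0.0703 after poly(dA:dT) and 3.03 ± 0.19 with poly(I:C) (SD, n = 3). The summed level of the 3 genes was 215 ± 3.06 CPM in mock, 197 ± 5.06 CPM after poly(dA:dT) and 306 ± 9.55 CPM with poly(I:C).

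**Figure D4:**
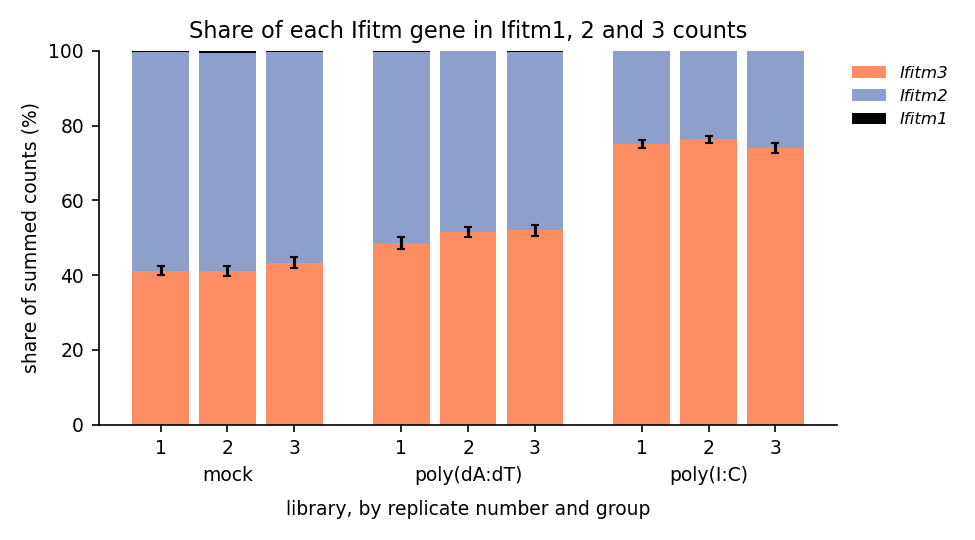
Share of Ifitm3 (orange), Ifitm2 (blue) and Ifitm1 (black, under 1%) in the summed counts of the 3 genes, in percent, 1 bar per library, with the exact 95% binomial interval of the Ifitm3 share, which covers counting error only. Ifitm3 takes 41% to 43.3% in mock and 74% to 76.3% after poly(I:C).

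Read assignment between these relatives was examined, since their coding sequences are alike. In the GENCODE transcripts the coding bases were identical at 80.9% of aligned positions between Ifitm2 and Ifitm3 and at 82.1% between Ifitm1 and either of them. Of all 50-base stretches, 22.8% in Ifitm2, 10.0% in Ifitm3 and 5.02% in Ifitm1 also occurred in transcripts of another locus, and none did in Bst2 or Isg20. The partners outside the family that are listed in the count files are Gm11951, Gm2840, Gm7676 and Gm8865, and none had more than 2 counts in any library. How reads with several mapping places were handled is not given, so the absolute levels of Ifitm2 and Ifitm3 are less certain than those of Bst2 and Isg20. The same limit holds for the Ifitm3 share, for the Ifitm3 counts per Ifitm2 count and for the order of Ifitm2 and Ifitm3 per length. GENCODE also places Gm45717 over 1101 bases of Ifitm2 on the same strand, and its identifier is not among those counted.

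The Ifitm cluster on chromosome 7 holds 5 of these genes in a row, Ifitm5, Ifitm2, Ifitm1, Ifitm3 and Ifitm6. Only Ifitm2 and Ifitm3 exceeded 2 CPM in any group. Ifitm5, known from bone-forming cells, had 3 to 9 counts per mock library, 3 to 6 after poly(dA:dT) and 2 to 4 after poly(I:C). Ifitm6 had 2, 0 and 1 counts in the mock libraries, 0, 0 and 1 in those of poly(dA:dT) and 3, 5 and 2 in those of poly(I:C). Away from this row, Ifitm7 had at most 1 count per library. Ifitm10, farther along chromosome 7, stood at 0.702 ± 0.323 CPM in mock (SD, n = 3) and was called in none of the comparisons (adjusted p = 0.924, 0.895 and 0.818). Ifitm5, Ifitm6 and Ifitm7 did not pass the filter on low counts and were not tested.

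**Figure D5:**
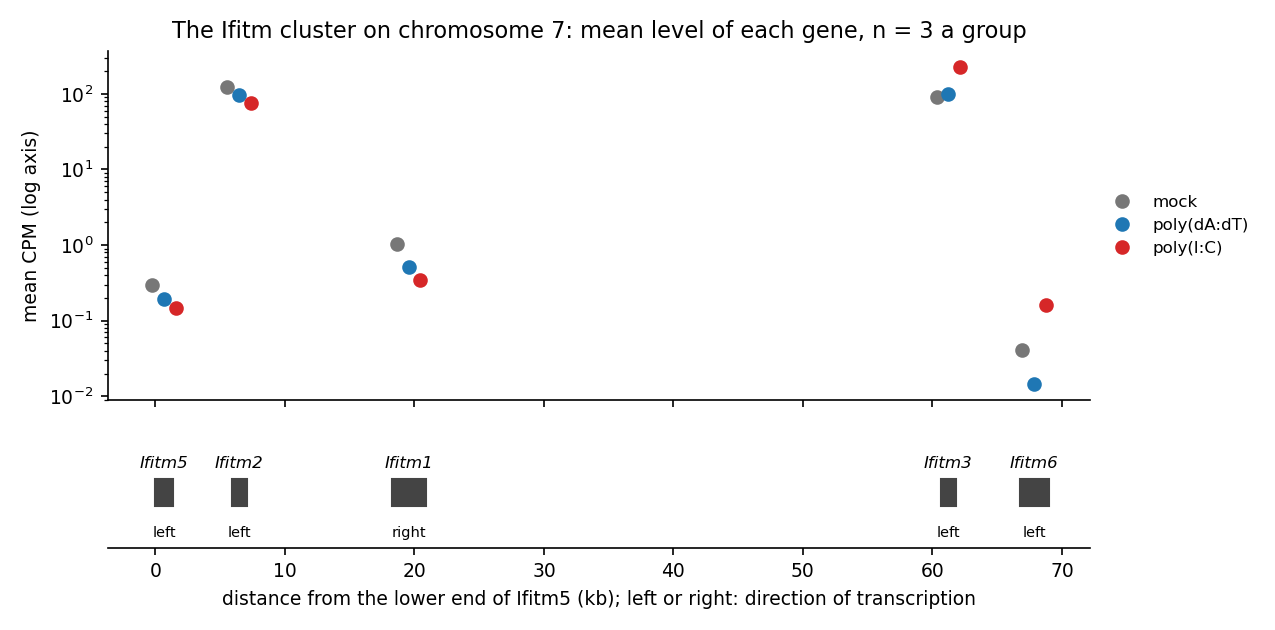
Mean level of the 5 genes of the Ifitm cluster in CPM (log axis, n = 3 a group) above their positions, in kilobases from the lower end of Ifitm5, with the 3 dots of a gene set apart sideways for legibility. Ifitm2 and Ifitm3 stand above 70 CPM in all groups, and the other genes stay below 1.1 CPM.

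Bst2 (ENSMUSG00000046718, chromosome 8, 71534255 to 71537456, minus strand), the tetherin gene, rose after poly(I:C) and did not respond detectably to poly(dA:dT). Its level was 53.1, 55.2 and 52.6 CPM in mock and 54.8, 54.5 and 53.1 CPM after poly(dA:dT). After poly(I:C) it was 148, 148 and 156 CPM. The poly(dA:dT) libraries lay inside the mock range, and all poly(I:C) libraries were far above both. The log2 fold change was 1.49 ± 0.04 (SE) after poly(I:C), a 2.80-fold rise (edgeR, adjusted p = 1.12e-83). With poly(dA:dT) it was 0.01 ± 0.04, with a 95% interval of -0.07 to 0.09 (adjusted p = 0.83). Poly(I:C) gave 2.78 times the poly(dA:dT) level (adjusted p = 1.60e-82). The next protein-coding gene in the files, Mvb12a, which encodes a subunit of a complex that sorts membrane cargo, starts 5466 bases away. It was called in no comparison, at 43.3 ± 0.816 CPM in mock, 42.2 ± 1.33 with poly(dA:dT) and 41.4 ± 0.763 with poly(I:C) (SD, n = 3).

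Bst2 is also a marker of plasmacytoid dendritic cells, so markers of other cells were read beside it. Of 5 markers of those cells, Ptprc was at 0 in all 9 libraries, and Siglech had 1 count in 1 poly(dA:dT) library. The summed level of the 5 was 0.664 to 0.895 CPM per library in mock, 1.78 to 2.2 after poly(dA:dT) and 3.58 to 3.88 after poly(I:C). Spib, a transcription factor, made up nearly all of it, with 16 to 22 counts in mock and 59 to 83 after poly(I:C). Spib was the only one of the 5 tested and was called higher after poly(dA:dT) (edgeR, 2.39-fold) and after poly(I:C) (4.66-fold). The 6 macrophage markers summed to 9.59 to 10.3 CPM in mock and 5.22 to 7.28 after poly(I:C). Of the 6 markers of primordial germ cells, in which Ifitm1 and Ifitm3 are known early markers, Dppa3 and Dazl were at 0 in every library, and the sum stayed at or below 0.388 CPM. The 4 osteoblast markers summed to 11 to 12.3 CPM in mock and 15.1 to 18.2 after poly(I:C), with Ibsp at 0 throughout. Alpl, the only osteoblast marker tested, was called higher after poly(I:C) (edgeR, 1.44-fold) and was not called after poly(dA:dT). The 6 endothelial markers summed to 1.95 to 2.62 and 5.58 to 6.84 CPM, with Tie1 at 0 throughout. Of the 4 tested, Pecam1, Kdr and Cdh5 were called higher after both mimics (edgeR), and Vwf was not called. After poly(I:C) Pecam1 rose 4.77-fold and Kdr 3.27-fold. Cdh5 had 0 counts in every mock library, 3, 9 and 2 in those of poly(dA:dT) and 10, 27 and 24 in those of poly(I:C). The filter favours genes that are high in 1 group, as Pecam1, Kdr and Cdh5 were after poly(I:C). Their calls are therefore no independent support. The 6 epithelial markers summed to 9.13 to 10.5 and 8.96 to 9.46 CPM, with none at 0 in any group. Most of that sum was Krt18, at a mean of 7.98 CPM in mock and 6.16 after poly(I:C), where it was called lower (edgeR). Cdh1 and Krt14 were called higher there, 2.27-fold and 2.03-fold, from means of 0.623 and 0.618 CPM in mock. The part of these low levels in the results was not tested. In bulk RNA, more transcript per cell and a change in the number of expressing cells cannot be told apart.

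Isg20 (ENSMUSG00000039236, chromosome 7, 78913424 to 78920396, plus strand), the exonuclease gene, showed the largest fold change of the 5 after poly(I:C). Its level was 8.84, 7.39 and 8.05 CPM in mock and 8.86, 9.58 and 9.48 CPM after poly(dA:dT). After poly(I:C) it was 35, 35.8 and 37.1 CPM. The lowest poly(dA:dT) library and the highest mock library were nearly equal, while the poly(I:C) libraries stood apart. The log2 fold change was 2.14 ± 0.08 (SE) after poly(I:C), a 4.41-fold rise (edgeR, adjusted p = 3.73e-60). Of all genes tested, 4.76% had a larger log2 fold change. Poly(I:C) gave 3.85 times the poly(dA:dT) level (adjusted p = 2.25e-55). After poly(dA:dT) the log2 fold change was 0.20 ± 0.10, with a 95% interval of 0.01 to 0.39, and was not called (adjusted p = 0.0743). It was called without mock replicate 1 (0.28, adjusted p = 0.0284), with upper-quartile factors (0.22, adjusted p = 0.0467) and with total counts (0.27, adjusted p = 0.0119).

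Isg20 lies 2215 bases from the end of Aen, which encodes an exonuclease of the same family that p53 induces. Aen followed another course than Isg20. It stood at 63.9 ± 1.96 CPM in mock, 84.7 ± 3.7 CPM after poly(dA:dT) and 82.6 ± 1.37 CPM with poly(I:C) (SD, n = 3). It was called higher after both mimics (edgeR, log2 fold changes of 0.41 and 0.37, adjusted p = 4.61e-19 and 5.60e-17) and was not called between them (adjusted p = 0.449). Acan, the next gene on the far side at 133087 bases, encodes a cartilage proteoglycan and had at most 2 counts per library.

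Levels can be compared between genes only per length, here as CPM per kilobase of merged exons. In mock the order was Ifitm2 at 189 ± 5.74, Ifitm3 at 132 ± 3.45, Bst2 at 59.4 ± 1.49, Isg20 at 4.35 ± 0.39 and Ifitm1 at 0.947 ± 0.266 CPM per kilobase (SD, n = 3), and all neighbours differed by more than their spread. After poly(dA:dT) Ifitm2 at 148 ± 1.31 and Ifitm3 at 148 ± 8.93 CPM per kilobase did not differ beyond their spread. Bst2 followed at 59.9 ± 1.00, Isg20 at 5.00 ± 0.209 and Ifitm1 at 0.474 ± 0.316 CPM per kilobase. After poly(I:C) Ifitm3 led at 338 ± 9.68, and Bst2 at 167 ± 5.06 had passed Ifitm2 at 116 ± 7.52 CPM per kilobase. Isg20 at 19.3 ± 0.593 and Ifitm1 at 0.311 ± 0.0898 CPM per kilobase again came last. With the longest transcript as the length, Isg20 came to 7.45 CPM per kilobase in mock and 33.1 with poly(I:C), and the order of the genes was the same. Isg20 therefore stayed far below the membrane proteins Ifitm3 and Bst2 in level, although its fold change was larger.

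The interferon known to drive such genes, and the factors that relay it, were read from the same libraries. Ifnb1, which encodes interferon β, had 1, 0 and 0 counts in the mock libraries, 120, 99 and 106 in those of poly(dA:dT) and 1935, 2048 and 1377 in those of poly(I:C). Of 13 genes of interferon signalling, 8 were called higher and 1 lower after poly(dA:dT), and 11 higher and 2 lower in the poly(I:C) comparison (edgeR). Ifnb1 is among those called higher. It passed the filter through the treated libraries, where it was high, so its calls are no independent support. Calls over all genes tested stood at 26.6% higher and 26.2% lower for the DNA mimic, and at 39.8% and 36.3% for the RNA mimic. Stat2 rose 2.32-fold and 12.7-fold and Irf9 2.87-fold and 11.3-fold after poly(dA:dT) and poly(I:C), and both encode transcription factors of the interferon response. Irf1 rose 2.48-fold and 9.25-fold, and Irf7, the factor that amplifies interferon transcription, 4.12-fold and 30.8-fold. Usp18, a brake on interferon receptor signalling, rose 7.51-fold and 132-fold. In the same poly(dA:dT) libraries Ifitm3 was called higher, Bst2 and Isg20 were not called, and Ifitm2 and Ifitm1 were called lower. Any part of the interferon factors in these results was not tested.

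Other genes of virus entry and release were taken from a list of 14, of which 13 were tested. With poly(dA:dT) 4 were called higher and 5 lower, and after poly(I:C) 6 higher and 5 lower (edgeR). The shares called higher among all genes tested were 26.6% and 39.8%, and those called lower 26.2% and 36.3%. The median log2 fold changes of the list were -0.05 and -0.03. Gbp5, a GTPase that impairs the processing of viral envelope proteins, rose from 0.216 ± 0.0976 CPM in mock to 18.2 ± 0.498 after poly(dA:dT) and 266 ± 0.847 with poly(I:C) (SD, n = 3). Rsad2, which encodes viperin, went from 0.244 ± 0.075 to 5.55 ± 0.856 and 78.7 ± 2.44 CPM. Gbp2, a relative of Gbp5, rose 1.59-fold and 12.5-fold, and Ch25h, which makes an oxysterol that hinders membrane fusion, 1.20-fold and 4.09-fold. These 4 were the largest changes of the list. Gbp5 and Rsad2 had at most 7 counts per mock library, and the filter favours genes that are high in 1 group. Their calls are therefore no independent support. Like Bst2, Ly6e, which encodes a membrane-anchored protein, was not called with poly(dA:dT) (0.952-fold, adjusted p = 0.413) and rose 1.54-fold with poly(I:C). Lgals3bp, which encodes a secreted glycoprotein, was likewise not called (1.04-fold, adjusted p = 0.592) and rose 1.87-fold. The 5 called lower after poly(I:C) were March2 (0.695-fold), Zmpste24 (0.741-fold), March8 (0.755-fold), Cnp (0.81-fold) and Serinc3 (0.825-fold). Ly6e, Lgals3bp and these 5 were named here after their values were seen.

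Of 12 nuclease and RNA-degradation genes 11 were tested. With poly(dA:dT) 6 were called higher and 0 lower, and after poly(I:C) 9 higher and 0 lower (edgeR). Genome-wide, the DNA mimic had 26.6% of tested genes called higher and 26.2% lower, and the RNA mimic 39.8% and 36.3%. The median log2 fold changes of the list were 0.15 and 0.49. Zc3hav1, the CpG-directed antiviral factor ZAP, rose 1.15-fold and 3.01-fold. Zc3h12a, an endonuclease that cuts cytokine transcripts, rose 1.36-fold and 2.24-fold, and N4bp1, an RNase-domain protein, 1.17-fold and 1.80-fold. Mov10, an RNA helicase, rose 1.93-fold after poly(I:C) and was not called after poly(dA:dT) (log2 fold change 0.02, adjusted p = 0.664). The Isg20 relative Isg20l2, which acts in ribosome maturation, was called in neither comparison with mock (log2 fold changes of 0.00 and -0.02, adjusted p = 0.965 and 0.616), and Rexo4, of the same exonuclease family, rose 1.11-fold and 1.30-fold. Both were named after their values were seen, as was Trex1, which was listed at 0 in all 9 libraries. Whether reads of Trex1 were lost in counting was not tested, so this 0 does not show that its transcript was absent.

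Of 8 genes whose products modify or assist IFITM proteins, all tested, 0 were called higher and 6 lower after each mimic (edgeR), where 26.2% and 36.3% of all genes were called lower, with median log2 fold changes of -0.15 after poly(dA:dT) and -0.43 with poly(I:C). Zdhhc20, a palmitoyltransferase that attaches the lipid that IFITM3 needs at the membrane, fell from 95.3 ± 1.43 CPM in mock to 76.3 ± 1.93 and 63.4 ± 1.37 CPM (SD, n = 3). Vcp, an ATPase that takes part in the turnover of IFITM3, showed log2 fold changes of -0.18 and -0.54, Setd7, a methyltransferase that acts on IFITM3, -0.18 and -0.44, and Zmpste24, a metalloprotease that works with IFITM proteins, -0.13 and -0.43. Zmpste24 is also on the list of entry and release genes and is counted among those called lower there. The members that were not called after either mimic were Itch, a ubiquitin ligase, and Fyn, a kinase that phosphorylates IFITM3, and these 2 were named after their values were seen.

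The genes whose course was most like that of each gene were ranked by the Euclidean distance between centred log2 CPM profiles over the 9 libraries, where a smaller distance is a closer course. For Ifitm2 they were Pin4 (distance 0.0743), Cks1b (0.12) and, slightly farther, Mxd3, of which Cks1b encodes a subunit of cyclin-dependent kinases. For Ifitm3 they were Sox9 (0.153), Rnd3 (0.172) and Daxx (0.197). For Bst2 they were the MHC class I gene H2-Q4 (0.127), whose reads can be shared with its near-identical relatives, the receptor gene Cd40 (0.225) and Parp12 (0.226). For Isg20 they were the antiviral gene Ifit2 (0.246), Ifi202b (0.293) and the adhesion molecule gene Vcam1 (0.302). For Ifitm1 the nearest genes were at a distance of 1.23 or more, namely Ptgds, Hoxc4 and Pcdhb19, and its low counts limit that comparison. Among the 5 genes themselves Bst2 and Ifitm3 were closest (0.396), and Bst2 and Isg20 came next (0.86), while Ifitm2 and Ifitm3 were 2.64 apart.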

How the data were processed

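The authors deposited whole-number counts for 46603 Ensembl identifiers in each library, without summary lines, and these were used unchanged. TopHat2 2.1.0, HTSeq, DESeq2 and the GRCm38.p4 build are named in the submitters' processing notes. Annotation release, strand setting and treatment of multi-mapping reads: not given in the sources used here. Libraries were made from total RNA with a TruSeq RNA kit, per the labels' protocols. Symbols and positions came from GENCODE M21 (GRCm38), which held 46091 of the identifiers. The other 512 carried 0.0588% of the counts.

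All 9 libraries were grouped by their titles and entered 1 edgeR 4.0.16 fit (R 4.3.3) with a mean per group, TMM scaling, filterByExpr, which left 14176 genes, and the robust quasi-likelihood test, two-sided. Adjusted p-values are by Benjamini-Hochberg over all 14176 genes, and genes under 0.05 are called. An SE was derived as |log2 fold change|/sqrt(F), and CPM uses TMM-scaled library sizes. The procedure was tested on simulated data. Replicates of a group differed by more than sampling noise (chi-square per degree of freedom 1.64 to 2.1 in 9 pairs). The alternatives were other scaling factors, DESeq2 1.42.0, other filters, no robust moderation, a replicate block, smaller fits and leaving out each library. The members and lists were chosen with earlier results of these data known. Named genes were the 5 members, Actb, other Ifitm genes, the nearest coding genes, key interferon factors, up to 4 called genes per list by size of change, and the 3 genes nearest in profile. Protein comparison was not done, and Ccdc194, next to Bst2, is not among the identifiers counted. A result for 1 gene of the interferon signalling list is not reported here.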

Additional observations from a re-analysis of the deposited data

How the results depend on the processing

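Across 15 alternatives for each gene and comparison (14 for Ifitm1 against mock and 13 between the mimics, since the filter of 50 counts removes it and filterByExpr does so when only the compared libraries are fitted), Ifitm3, Ifitm2, Bst2 and Isg20 in poly(I:C) against mock and against poly(dA:dT), Ifitm3 and Ifitm2 in poly(dA:dT) against mock, and Ifitm1 in poly(I:C) against mock kept their direction and their call. The log2 fold change after poly(I:C) ranged from 1.33 to 1.47 for Ifitm3, 1.46 to 1.60 for Bst2, 2.07 to 2.26 for Isg20 and -0.75 to -0.60 for Ifitm2. Ifitm1 and Isg20 after poly(dA:dT) changed their call as given with their values. Bst2 after poly(dA:dT), never called, was 0.09 with total counts (adjusted p = 0.0667), the highest value, -0.0058 with DESeq2 size factors, -0.0070 with DESeq2 and ran from -0.00085 without mock replicate 3 to 0.032 without mock replicate 2. Ifitm1 in poly(I:C) against poly(dA:dT) ran from -0.98 without poly(dA:dT) replicate 2 to 0.0010 without poly(dA:dT) replicate 1, never called. Total counts as the scaling moved the median of all genes by 0.11 on the log2 scale in poly(I:C) against mock, less than any change called there among the 5 genes. The number of the 5 genes called ran from 2 to 4 in poly(dA:dT) against mock, with 3 in the main fit. In poly(I:C) against mock it was 4 with the filter of 50 counts, which removes Ifitm1, and 5 in the main fit. The number of all genes called stayed within 1.5 times, and the order of levels per length stayed equal, under every alternative run. The replicate numbers did not pair the libraries: same-numbered libraries correlated at -0.0138 to 0.0225 in their deviations. With a replicate block 7384 genes were called in poly(dA:dT) against mock, 10724 in poly(I:C) against mock and 8905 between the mimics, and no call among the 5 genes changed. Depth limits Ifitm1, Ifitm5, Ifitm6 and Ifitm7.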
